A study of Sus scrofa with 19 samples.

Results

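The genes followed here encode titin and 8 proteins that bind or accompany it in the sarcomere, the contractile unit of cardiac muscle. The 9 listed members, TTN, MYOM1, MYOM2, MYBPC3, TCAP, LDB3, MYPN, MYOZ2 and NEBL, were looked up by symbol in the authors' table of 14744 genes, of which 13363 carry a symbol, and were joined by Ensembl identifier to the raw counts of 25879 genes. In all, 8 of the 9 were found. TTN, the gene of titin itself, was not found by its symbol and was not analysed here. All 8 passed the filter on low counts that left 13552 genes to test, and the smallest count of any of them in any library was 1656, for MYPN.

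Titin runs from the Z-disc, the border of the sarcomere at which thin filaments are anchored, to the M-band, the middle of the sarcomere at which thick filaments are crosslinked, and it acts as a molecular spring and ruler. At the M-band, the myomesins (MYOM1, MYOM2) link titin to myosin, and along the thick filament the cardiac myosin-binding protein C (MYBPC3) binds titin and myosin and tunes crossbridge cycling. At the Z-disc, telethonin (TCAP) caps the end of titin, while cypher (LDB3), myopalladin (MYPN), calsarcin-1 (MYOZ2) and nebulette (NEBL) tie alpha-actinin, nebulin-type repeats and signalling proteins such as calcineurin into the same lattice.

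Bulk poly(A) RNA of the myocardium of 19 female large white pigs was sequenced, with 1 library per pig. DOX pigs (n = 5) were given doxorubicin and MYO pigs (n = 5) Myocet, in which doxorubicin is enclosed in liposomes, both at 60 mg/m2 in each of 3 cycles, and their anterior wall was taken at 3 months. RemoLV pigs (n = 3) had a balloon occlusion of the left anterior descending coronary artery for 90 min with reperfusion, and their posterior wall, remote from the infarct, was taken at 6 months. In Hyper pigs (n = 3), a stent of 9 mm made an artificial isthmus stenosis and so loaded the ventricle with pressure, and the anterior wall was taken at 6 months. The sample labels of Hyper speak of a coronary stent, whereas the protocol places the stent in the aorta. Control pigs (n = 3) gave anterior wall at 6 months and are called sham-operated in the labels and untreated in the methods. The data of the DOX and MYO pigs came from an earlier experiment, so that drug, follow-up time and experiment cannot be told apart in any comparison of these pigs with the others, nor can infarction and wall in RemoLV. The deposited libraries also carry numbers, which are consecutive over Hyper and Control and lie apart in RemoLV, and again in DOX and MYO. What these numbers stand for is not given, and it cannot be told apart from infarction and wall in RemoLV.

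Library totals ran from 9527710 to 20370209 counts. The deposited files carry 2 sets of sample names that conflict: every sample column of the table (19 in all) could be traced to 1 count file of the same ranks (Spearman correlation 1.0), and 8 of them were traced to a file labelled as a different group. Those named Control match the files labelled RemoLV, those named RemoLV match the files labelled Control, and 1 DOX and 1 MYO column are exchanged. Groups below follow the labels of the count files (file labels), and the counts of members that passed, with the values that changed sign or call, are also given with the names of the table (table names). Other scalings and left-out libraries follow the file labels. Which set of names is right was not settled here. The 3 libraries labelled RemoLV, which form 1 group under both namings, went against the label of LV myocardium. In these libraries MYL2, the regulatory light chain of the ventricle, was at 18.6, 115 and 40.0 CPM (counts of a gene divided by the size of the library, per 1000000 counts), against 8975 to 18077 CPM in the 16 others, and the ventricular transcription factor IRX4 was at 0 to 0.178 CPM against 8.38 to 27.7 CPM. MYL4, the atrial essential light chain, was at 6029 to 8130 CPM in them and at 21.9 CPM or less in the others. The 4 atrial markers found of 6 summed to 9394 to 12663 CPM, against 61.8 to 2389 CPM in the other groups, the 5 ventricular markers to 25022 to 29133 CPM against 44968 to 74544 CPM, and the 7 fibroblast markers to 10715 to 12383 CPM against 1563 to 7131 CPM (2076 to 3479 CPM in the libraries labelled Control). Most of the ventricular sum came from the row named MYH7, which a second gene name table calls MYH6, and without that row the sum was 2103 to 3148 CPM against 14583 to 24738 CPM. The part of these markers in the results below was not tested. In bulk tissue, fewer cells of a type and less RNA per cell cannot be told apart.

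**Figure D1:**
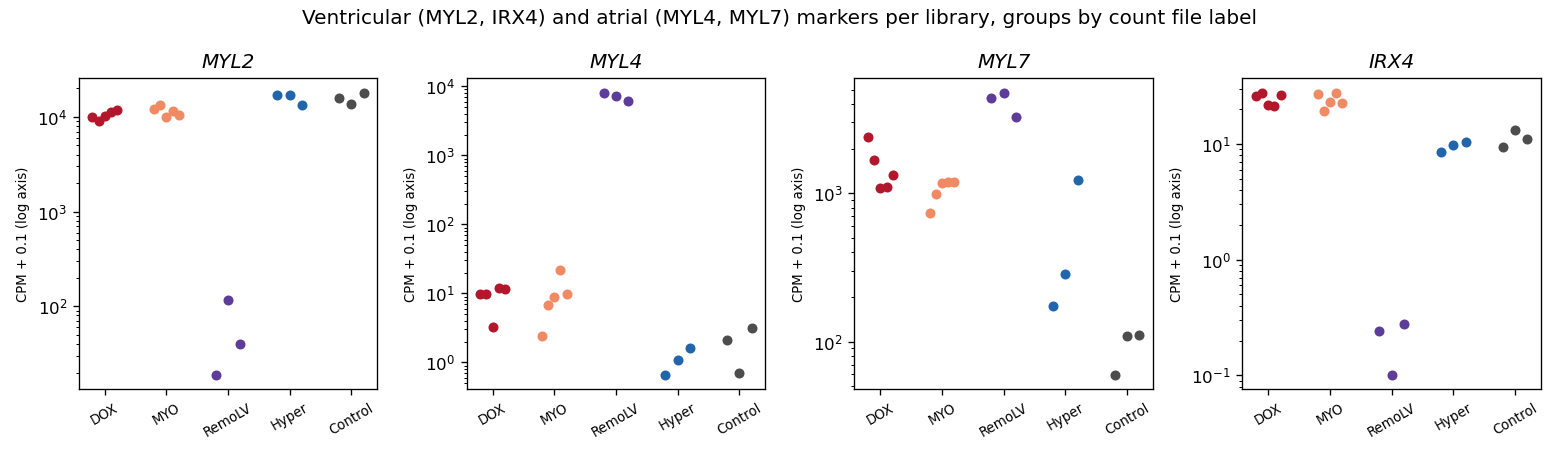
CPM + 0.1 of MYL2, MYL4, MYL7 and IRX4 on log axes, 1 point per library, with groups by the labels of the count files. The 3 libraries labelled RemoLV lie lowest for MYL2 (18.6 to 115 CPM) and IRX4 (0 to 0.178 CPM) and highest for MYL4 (6029 to 8130 CPM).

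CPM values below are scaled with the trimmed mean of M-values (TMM), and a level per length is CPM per kilobase of merged RefSeq exons. Per length, the members spanned a wide range over all 19 libraries. TCAP stood highest at 2578 CPM per kb, followed by MYBPC3 at 1343 and MYOZ2 at 1213 CPM per kb. The M-band gene MYOM2 was at 499 CPM per kb and its paralogue MYOM1 at 186 CPM per kb. LDB3 was at 320, NEBL at 167 and MYPN at 31.5 CPM per kb, although the 13.5 kb of merged NEBL exons cover 14 RefSeq transcripts of unlike length. The order of MYBPC3 and MYOZ2 differed between groups. MYBPC3 was above MYOZ2 in DOX (1469 and 1098 CPM per kb) and MYO (1557 and 1090). It was below MYOZ2 in RemoLV (956 and 1251), Control (1199 and 1473) and, narrowly, Hyper (1305 and 1311). Together the 8 members took 1.42% to 2.09% of all counts of a library.

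How much the members varied between libraries also differed. The coefficient of variation over the 19 libraries was 44.9% for MYPN, 29.0% for MYOM2, 28.3% for MYOM1, 22.9% for TCAP and 21.2% for LDB3, and it was between 15.3% and 17.4% for MYOZ2, MYBPC3 and NEBL. Group means differed at most 3.23-fold for MYPN and 2.40-fold for MYOM2, and at most 1.35-fold for MYOZ2 and NEBL. RemoLV had the lowest group mean for 6 of the 8 members, and MYO had the lowest for MYOZ2 and NEBL. For MYOM2, LDB3, MYPN and MYBPC3, each of the 3 libraries labelled RemoLV lay below each of the 16 other libraries, a position that 7.98% of all genes tested shared. MYOM1 in these libraries, at 760 to 814 CPM, overlapped the others only at their lower end (764 to 1933 CPM), and so did TCAP, at 1805 to 2211 CPM against 1900 to 3995 CPM. MYOZ2 and NEBL in these libraries lay within the range of the others.

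**Figure D2:**
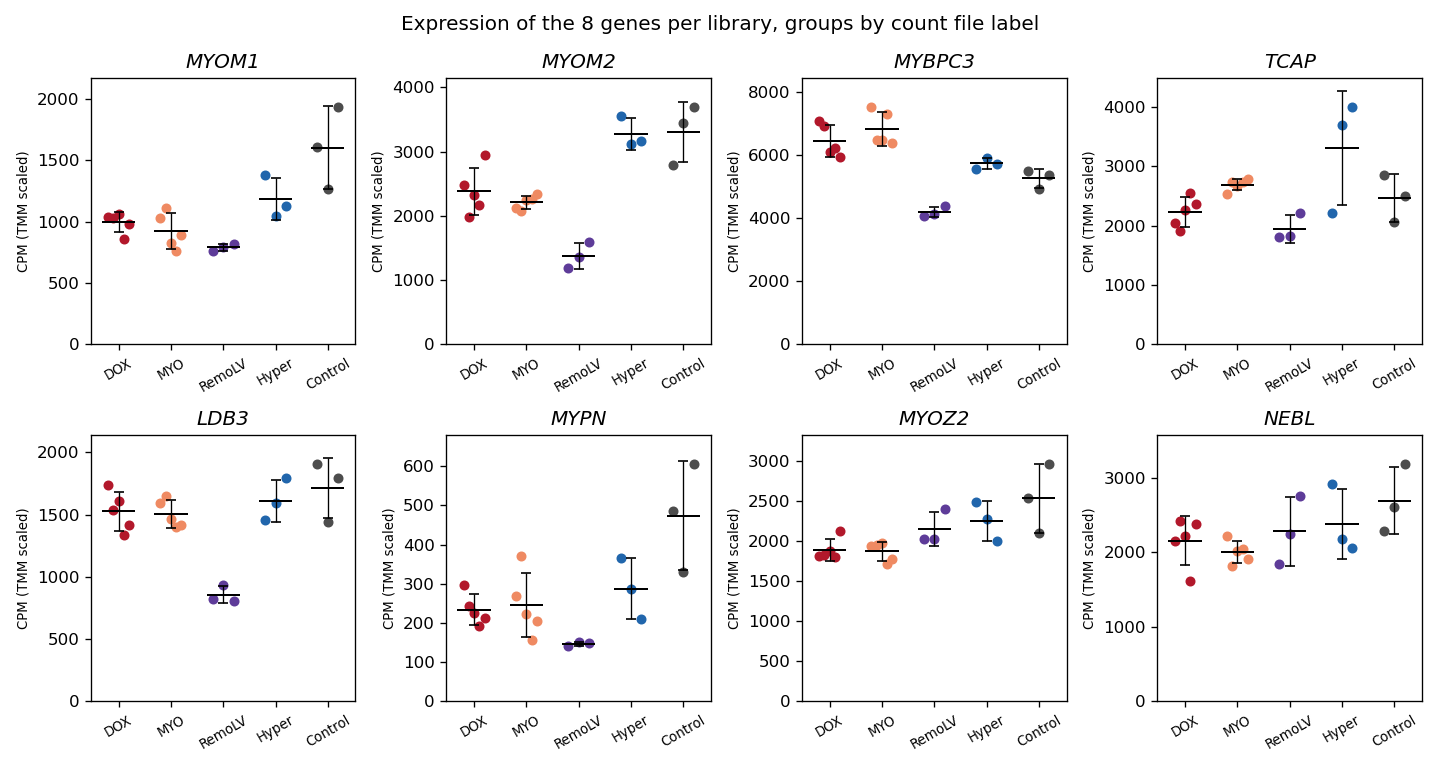
TMM-scaled CPM of the 8 members, 1 point per library, with the group mean (line) and SD (bar), groups by the labels of the count files. In RemoLV, MYOM2 (1189 to 1587 CPM), LDB3 (809 to 935 CPM), MYPN (142 to 152 CPM) and MYBPC3 (4068 to 4366 CPM) lie below every other library.

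The 8 genes lie on 7 pig chromosomes of the assembly Sscrofa11.1, in RefSeq coordinates. LDB3 (chr14:87660961-87722249) and MYPN (chr14:71283271-71388591) share a chromosome, and the others are MYBPC3 (chr2:15247679-15269714), MYOM1 (chr6:103451206-103593093), MYOM2 (chr15:33529559-33606928), MYOZ2 (chr8:104578942-104609367), NEBL (chr10:53602929-53957869) and TCAP (chr12:22651666-22652904). MYOZ2 and TCAP are on the minus strand. Counting was stranded, and 3 members overlap a gene of the opposite strand (MYOM2, MYPN and MYOZ2), while NEBL overlaps C10H10orf113 on its own strand, so reads in their shared stretch may be left out or split. The promoters of 7 members, taken as 250 bases before to 50 bases from the RefSeq gene start on, were searched on both strands for 4 motifs of muscle genes. MEF2 is a family of muscle transcription factors whose site has only A or T in its middle. A looser pattern, CTANNNNTAG, which allows any base there, was present in 5 of 7 promoters, while 2.69% of 19278 RefSeq promoters hold it. The M-CAT box CATTCC was found in 1 of 7 promoters (11.8% of all), the GATA motif GATAAG in 1 of 7 (5.59% of all) and the E-box CAGCTG in 3 of 7 (16.6% of all). The promoters of MYOM2, LDB3 and MYPN are shown because, of these 7 members, they are the 3 whose mean in RemoLV was lowest relative to Control, and the looser MEF2 pattern is in capitals. They lie at chr15:33529309-33529608, chr14:87660711-87661010 and chr14:71283021-71283320, all on the plus strand.
MYOM2: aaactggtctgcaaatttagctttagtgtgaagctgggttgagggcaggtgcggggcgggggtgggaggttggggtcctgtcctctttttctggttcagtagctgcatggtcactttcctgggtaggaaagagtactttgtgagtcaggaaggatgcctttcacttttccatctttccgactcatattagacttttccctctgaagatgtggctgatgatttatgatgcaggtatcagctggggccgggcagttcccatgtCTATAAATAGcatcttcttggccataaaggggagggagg
LDB3: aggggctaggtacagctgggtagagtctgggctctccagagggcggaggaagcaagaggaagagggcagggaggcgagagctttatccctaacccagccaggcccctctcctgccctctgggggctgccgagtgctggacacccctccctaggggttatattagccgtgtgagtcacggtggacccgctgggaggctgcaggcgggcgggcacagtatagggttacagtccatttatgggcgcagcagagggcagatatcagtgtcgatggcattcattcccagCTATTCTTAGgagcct
MYPN: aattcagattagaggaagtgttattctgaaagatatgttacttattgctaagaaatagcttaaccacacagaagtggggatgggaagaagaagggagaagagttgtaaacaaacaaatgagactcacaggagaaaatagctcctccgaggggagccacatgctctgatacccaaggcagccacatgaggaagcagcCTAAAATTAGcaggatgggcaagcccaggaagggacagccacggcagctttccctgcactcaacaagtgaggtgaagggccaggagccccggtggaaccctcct
Counted with the gene start as base 1, the match began at base 12 in MYOM2 and at base 35 in LDB3, and at -54 in MYPN. The LDB3 match, CTATTCTTAG, holds a C among its middle bases and so lies outside the stricter MEF2 site. The other 2 promoters with the pattern were MYBPC3 (CTATATTTAG at -61) and MYOZ2 (CTATATATAG at -30), and none was found in the windows of NEBL and TCAP. A match is a description of the letters and not a binding site, and MYOZ2, which holds it, did not pass the test in RemoLV.

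RemoLV was compared with Control to ask how remodelled remote myocardium after infarction differs from control myocardium. With file labels, both myomesin genes and 2 Z-disc genes, LDB3 and MYPN, had about 2- to 3-fold lower levels in RemoLV, MYBPC3 was lower by a smaller margin, and no member was higher. In total 5 of 8 members were lower, while 47.2% of all genes tested passed, 24.0% lower and 23.1% higher. The median log2 fold change of the 8 members was -0.67, and that of all genes tested was 0.02. The study also asks of a DEG that the log2 fold change be at least 2 in size, which no member reached here or in any other comparison, while 6.35% of all genes did so and passed in RemoLV vs. Control, 2.75% in DOX vs. Control, 2.47% in MYO vs. Control, 4.93% in RemoLV vs. Hyper and 1.75% in DOX and MYO vs. Hyper. With table names the same libraries change places, and the same 5 members were higher in RemoLV.

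MYOM2, the M-band myomesin found in adult heart and fast muscle, was at 1189, 1364 and 1587 CPM in the RemoLV libraries and at 2791, 3438 and 3696 CPM in Control. The groups did not overlap, and the log2 fold change was -1.26 ± 0.15 (SE; edgeR quasi-likelihood test, adjusted p = 3.5e-06). Its paralogue MYOM1 had 760, 796 and 814 CPM in RemoLV and 1608, 1263 and 1933 CPM in Control. Again every RemoLV library was below every Control library (25.7% of all genes lay apart in this direction), with a log2 fold change of -1.02 ± 0.16 (edgeR, adjusted p = 6.59e-05). With table names, these became 1.26 and 1.02.

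LDB3, whose product cypher holds alpha-actinin at the Z-disc, was even within RemoLV at 822, 935 and 809 CPM, and lay at 1906, 1443 and 1796 CPM in Control. Its log2 fold change was -1.0 ± 0.13 (edgeR, adjusted p = 9.86e-06). MYPN, which binds nebulin-type proteins and alpha-actinin, was at 142, 152 and 148 CPM in RemoLV, with an SD of 5.01 CPM, and at 486, 331 and 606 CPM in Control, with an SD of 138 CPM. The difference was the largest among the 8 members in this comparison, with a log2 fold change of -1.69 ± 0.27 (edgeR, adjusted p = 8.09e-05), a 3.23-fold lower level. MYPN was thus the steadiest member within RemoLV and the most variable within Control.

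MYBPC3 was at 4068, 4142 and 4366 CPM in RemoLV and at 5495, 4928 and 5352 CPM in Control, and the log2 fold change was -0.33 ± 0.11 (edgeR, adjusted p = 0.0182). This call was lost at log2 fold changes of about the same size. They were -0.31 without RemoLV replicate 1 (edgeR, adjusted p = 0.0533) and -0.30 without Control replicate 1 (adjusted p = 0.0587). When only the 6 libraries of these groups were fitted, the value was -0.32 (adjusted p = 0.138). TCAP, MYOZ2 and NEBL did not pass the test with file labels, with log2 fold changes of -0.34 (95% confidence interval -0.72 to 0.03), -0.24 (-0.51 to 0.03) and -0.24 (-0.61 to 0.13). TCAP passed without Control replicate 2 (log2 fold change -0.47, edgeR adjusted p = 0.0427), as did MYOZ2 (-0.36, adjusted p = 0.0218).

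The scaling of libraries moved all of these values. The 10 most abundant genes took 24.6% to 31.9% of the counts in Control and 18.4% to 22.1% in RemoLV, and TMM factors were 0.6963 to 0.9649 in Control and 1.102 to 1.178 in RemoLV. When libraries were scaled to their totals instead, an alternative added after the values were seen, the median of all genes in RemoLV vs. Control rose from 0.02 to 0.52, and when they were scaled to genes that all cardiomyocytes express it rose to 0.51. The 7 cardiomyocyte genes found of 10 were themselves uneven, with 5 lower and 1 higher in RemoLV under TMM. Among them CKMT2 had a mean of 309.6 CPM in RemoLV and 1375 CPM in Control, TNNC1 2681 and 6403 CPM, and ACTC1 9325 and 2134 CPM. A change of scaling moves all genes by nearly the same amount, so distances from the median of all genes could hardly differ between scalings. That distance was -1.28, -1.27 and -1.28 for MYOM2 under TMM, library totals and cardiomyocyte genes, and -1.71, -1.65 and -1.67 for MYPN. MYOM1, MYOM2, LDB3 and MYPN also passed the test as lower under both other scalings, with log2 fold changes of -0.48 or below, while 7.66% of all genes were lower with library totals and 7.09% with cardiomyocyte genes. MYBPC3 turned to 0.19 (library totals) and 0.18 (cardiomyocyte genes) and did not pass, and MYOZ2 turned to 0.30 and passed as higher with library totals (edgeR, adjusted p = 0.0305), as 45.6% of all genes did (42.9% with cardiomyocyte genes).

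**Figure D3:**
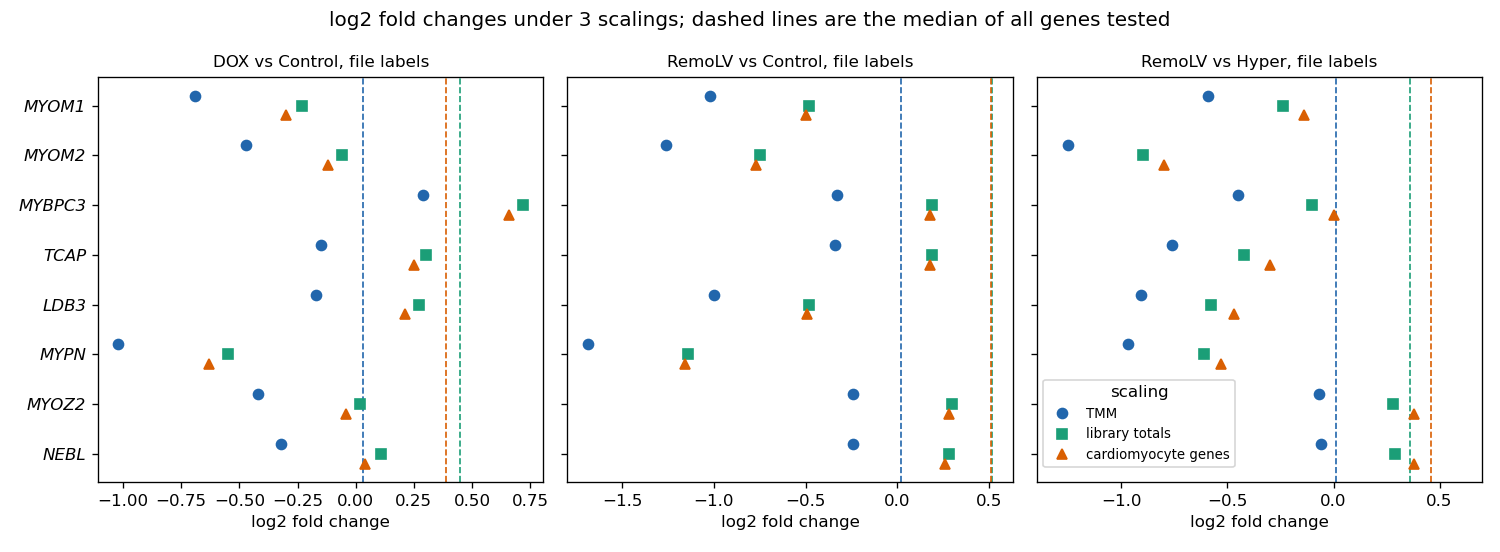
log2 fold changes of the 8 members (symbols) under TMM scaling, library totals and scaling to cardiomyocyte genes, for DOX vs. Control, RemoLV vs. Control and RemoLV vs. Hyper with file labels, and the median of all genes tested under each scaling (dashed lines). The members and the median shift together, from 0.02 to 0.52 for the median in RemoLV vs. Control.

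DOX and MYO were compared with Control to ask what free and liposomal doxorubicin leave behind in the myocardium, and these comparisons share the 3 Control libraries. With file labels, MYOM1, MYOM2, MYPN and MYOZ2 were lower and MYBPC3 was higher in both groups. In DOX, 5 of 8 members passed the test, 1 higher and 4 lower, while 42.1% of all genes tested passed (21.0% higher, 21.1% lower). In MYO, 6 of 8 passed, 1 higher and 5 lower, against 42.4% of all genes (20.7% higher, 21.7% lower). The median of the members was -0.37 in DOX and -0.43 in MYO, against 0.03 and 0.02 for all genes. With table names no member was lower, and 4 were higher in DOX and 5 in MYO (15.0% and 14.8% of all genes). Markers of other cells moved in the same comparisons. With file labels, the 7 fibroblast markers summed to 4798 to 7131 CPM in DOX and 4600 to 6692 CPM in MYO against 2076 to 3479 CPM in Control (3 of 7 higher in each group, 0 lower in DOX and 1 in MYO), and their median log2 fold changes were 0.98 and 0.73. Of the 4 atrial markers, 2 were higher in each group, and MYL7, the atrial regulatory light chain, was at 1080 to 2379 CPM in DOX and 736 to 1193 CPM in MYO against 59.1 to 111 CPM. Of the 7 genes of all cardiomyocytes, 4 were lower and 1 higher in DOX and 5 were lower in MYO, with medians of -0.49 and -0.48 beside the -0.37 and -0.43 of the members. Their part in these results was not tested.

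MYPN had the largest difference of the members, at 296, 244, 225, 193 and 214 CPM in DOX and 268, 372, 224, 158 and 205 CPM in MYO, compared with 331 to 606 CPM in Control. All DOX libraries and 4 of 5 MYO libraries were below Control. The log2 fold change was -1.02 ± 0.23 in DOX (edgeR, adjusted p = 0.0021) and -0.95 ± 0.23 in MYO (edgeR, adjusted p = 0.00331). MYOM1 was at 1037, 1032, 1063, 861 and 983 CPM in DOX and at 1032, 1112, 829, 764 and 887 CPM in MYO. All 10 libraries were below the lowest Control library (1263 CPM), as 17.3% of all genes were in DOX and 18.7% in MYO, with log2 fold changes of -0.69 ± 0.14 (edgeR, adjusted p = 0.000898) and -0.79 ± 0.14 (edgeR, adjusted p = 0.000273).

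MYOM2 was at 2477, 1986, 2323, 2173 and 2948 CPM in DOX, where the highest library overlapped Control, and at 2127, 2080, 2245, 2263 and 2341 CPM in MYO, where none did. Its log2 fold changes were -0.47 ± 0.13 (edgeR, adjusted p = 0.00673) and -0.58 ± 0.13 (edgeR, adjusted p = 0.00157). MYOZ2, whose product calsarcin-1 restrains calcineurin at the Z-disc, ranged from 1797 to 2127 CPM in DOX and from 1715 to 1983 CPM in MYO, against 2101 to 2965 CPM in Control. The differences were -0.42 ± 0.11 (edgeR, adjusted p = 0.00653) and -0.43 ± 0.11 (edgeR, adjusted p = 0.00534), and both were lost without Control replicate 3 (adjusted p = 0.0728 and 0.0641). With table names MYOZ2 kept its sign but did not pass (log2 fold change -0.22 and -0.17, edgeR adjusted p = 0.158 and 0.279).

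MYBPC3 was the 1 member that passed as higher with file labels. It was at 7070, 6915, 6087, 6221 and 5928 CPM in DOX, at 7517, 6478, 6483, 7302 and 6374 CPM in MYO, and at 4928 to 5495 CPM in Control. All 10 libraries were above Control, as 17.2% of all genes were in DOX and 19.0% in MYO, with log2 fold changes of 0.29 ± 0.10 (edgeR, adjusted p = 0.0213) and 0.38 ± 0.10 (edgeR, adjusted p = 0.00476). MYBPC3 was also higher with table names (0.69 and 0.64, edgeR adjusted p = 5.09e-05 and 0.000112) and under both other scalings (0.66 to 0.81), under which many genes were higher: 41.5% in DOX and 40.6% in MYO with library totals, and 36.5% and 35.0% with cardiomyocyte genes. In DOX with file labels the call was lost without DOX replicate 1 (0.24), Control replicate 2 (0.25) or Control replicate 3 (0.31), with adjusted p between 0.052 and 0.0639 by edgeR. It was also lost when only the DOX and Control libraries were fitted (0.29, adjusted p = 0.0846), the one call in DOX or MYO vs. Control that needed the other libraries in the fit.

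LDB3 and TCAP did not pass in DOX or in MYO with file labels. LDB3 was at 1337 to 1734 CPM in DOX and 1399 to 1647 CPM in MYO, within reach of Control (1443 to 1906 CPM), and its log2 fold changes were -0.17 (95% confidence interval -0.41 to 0.07) and -0.19 (-0.43 to 0.05), the latter passing without Control replicate 2 (-0.30, edgeR adjusted p = 0.0409). With table names, however, LDB3 was higher by 0.87 in DOX and 0.78 in MYO (edgeR, adjusted p = 2.21e-05 and 6.43e-05), and with library totals by 0.27 and 0.25. TCAP had log2 fold changes of -0.15 (-0.48 to 0.18) and 0.12 (-0.21 to 0.46), and in MYO it passed as higher with table names and under both other scalings (0.45 to 0.57). NEBL, at 1614 to 2415 CPM in DOX and 1822 to 2214 CPM in MYO against 2290 to 3184 CPM in Control, passed in MYO alone (-0.43 ± 0.16, edgeR adjusted p = 0.0344), and that call was lost without any 1 of MYO replicates 2 to 5, although the log2 fold change then lay between -0.40 and -0.44 (adjusted p = 0.0515 to 0.0677). It was also lost without Control replicate 3 (-0.29, adjusted p = 0.22) and with a replicate block (adjusted p = 0.114). With table names NEBL was at -0.10 in DOX and -0.16 in MYO and did not pass (edgeR, adjusted p = 0.663 and 0.467).

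Under TMM, Control replicate 3, whose TMM factor was the smallest (0.6963), held the highest level of MYOM1, MYOM2, MYPN, MYOZ2 and NEBL in Control. Per library total, Control replicate 2 was above it for MYOM2 (3316 against 2572 CPM) and NEBL (2514 against 2216 CPM), but not for MYOM1, MYPN and MYOZ2. Without Control replicate 3, 2 members (MYOM1 and MYPN) passed in DOX instead of 5. The split of calls depended on the scaling. In DOX it was 1 higher and 4 lower under TMM, 2 higher and 1 lower with library totals, and 1 higher and 1 lower with cardiomyocyte genes. In MYO it was 1 higher and 5 lower under TMM, 3 higher and 2 lower with library totals, and 2 higher and 2 lower with cardiomyocyte genes. MYPN and MYBPC3 passed in both groups under all 3 scalings, and MYOM1 did so in MYO (-0.34 with library totals and -0.41 with cardiomyocyte genes). In DOX, MYOM1 was at -0.23 with library totals and -0.30 with cardiomyocyte genes and did not pass (edgeR, adjusted p = 0.101 and 0.0986). Of all genes, 5.2% in DOX and 5.56% in MYO were lower with library totals, and 5.56% and 5.9% with cardiomyocyte genes. Under the scalings to library totals and to cardiomyocyte genes, the log2 fold change of MYOM2 shrank to between -0.06 and -0.23 and no longer passed. MYOZ2 no longer passed either, at 0.02 in DOX and 0.01 in MYO with library totals and at -0.04 and -0.06 with cardiomyocyte genes, and NEBL in MYO was at 0.01 and -0.07. The distance of MYOM2 from the median of all genes, which is nearly fixed whatever the scaling, was -0.51 in DOX under each scaling and between -0.60 and -0.61 in MYO.

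**Figure D4:**
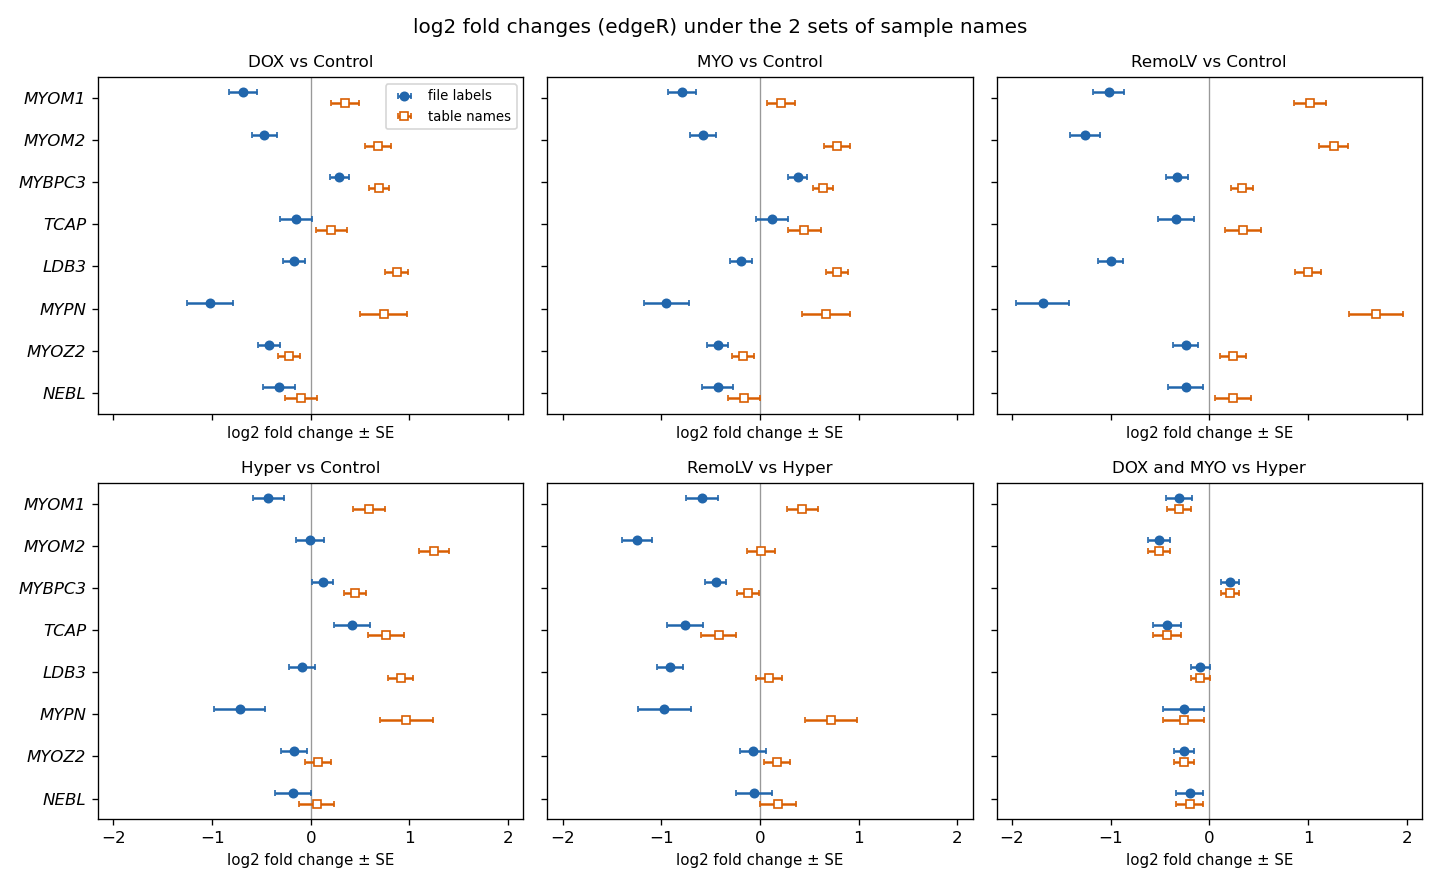
log2 fold changes with SE (edgeR) of the 8 members in 6 comparisons, with file labels (filled circles) and table names (open squares). All 8 values of RemoLV vs. Control change sign between the namings, whereas those of DOX and MYO vs. Hyper keep theirs, such as -0.51 for MYOM2.

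Hyper was compared with Control to ask what pressure overload does. With file labels no member passed the test, and neither did any gene (0.0% of 13552) by edgeR. At an unadjusted p under 0.05, 3 members were counted (MYOM1, MYPN and TCAP) beside 17.8% of all genes, and DESeq2 called no member. The means of MYOM2 were 3277 ± 247 CPM (SD, n = 3) in Hyper and 3308 ± 466 CPM (n = 3) in Control, a log2 fold change of -0.01 with a 95% confidence interval of -0.32 to 0.29. MYPN was at 366, 286 and 210 CPM in Hyper, with a log2 fold change of -0.72 (edgeR, adjusted p = 0.186), and MYOM1 at 1380, 1049 and 1127 CPM, with -0.43 (adjusted p = 0.185). TCAP spread most in Hyper, at 2211, 3697 and 3995 CPM, with a log2 fold change of 0.42 (adjusted p = 0.234).

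These last values hung on single libraries. Without Control replicate 2, MYOM1 (-0.58, edgeR adjusted p = 0.0167) and MYPN (-0.93, adjusted p = 0.025) passed as lower, and without Hyper replicate 1, TCAP passed as higher (0.64, edgeR adjusted p = 0.0268). With table names, 6 members were higher in Hyper than in Control (18.7% of all genes), namely MYOM2 (1.25), MYPN (0.97), LDB3 (0.91), TCAP (0.76), MYOM1 (0.59) and MYBPC3 (0.45).

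RemoLV and Hyper were set against each other because both followed a catheter intervention and the same time to sampling, and because Control takes no part. With file labels, 6 of 8 members were lower in RemoLV (35.6% of all genes passed, 18.6% lower and 17.0% higher), and MYOZ2 and NEBL had log2 fold changes of -0.07 and -0.06 that did not pass. MYOM2, at 3561, 3112 and 3158 CPM in Hyper, was 2.37-fold lower in RemoLV (log2 fold change -1.25 ± 0.15, edgeR adjusted p = 4.64e-06). LDB3, at 1456, 1589 and 1791 CPM in Hyper, was 1.88-fold lower (-0.91 ± 0.13, edgeR adjusted p = 3.12e-05). No RemoLV library reached a Hyper library for MYOM2, LDB3, MYPN, MYOM1 or MYBPC3 (23.8% of all genes lay apart in this direction). The other calls were MYPN (-0.97), TCAP (-0.76), MYOM1 (-0.59) and MYBPC3 (-0.45), and TCAP, at 1805, 1817 and 2211 CPM in RemoLV, met the lowest Hyper library.

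Under library totals 3 members passed (MYOM2, LDB3 and MYPN) and under scaling to cardiomyocyte genes 2 (MYOM2 and LDB3), all lower in RemoLV, as were 7.1% and 5.26% of all genes. MYPN was also lost without Hyper replicate 1 (edgeR, adjusted p = 0.0531). With table names the libraries called RemoLV are those labelled Control, and no member and no gene passed (0.0%; MYBPC3 was at -0.12 and TCAP at -0.42), with 3 members (MYOM1, MYPN and TCAP) at an unadjusted p under 0.05 beside 18.2% of all genes.

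DOX and MYO, pooled, were compared with Hyper, the comparison whose libraries belong to the same 2 sides under both namings. By edgeR, MYOM2 and TCAP were lower in the drug groups, and no member was higher (32.6% of all genes passed, 16.9% lower). DESeq2 also called MYOZ2 as lower and MYBPC3 as higher. In the same comparison 3 of 7 fibroblast markers (median log2 fold change 0.48) and 2 of 4 atrial markers (median 0.50) were higher and 3 of 7 cardiomyocyte genes (median -0.32) were lower, and their part in the result was not tested. The 10 drug libraries had 1986 to 2948 CPM of MYOM2, all below the 3 Hyper libraries (3112 to 3561 CPM), as 11.0% of all genes were, with a log2 fold change of -0.51 ± 0.11 (edgeR, adjusted p = 0.00218, and 0.00217 with table names). TCAP was at 2047, 1900, 2257, 2546 and 2367 CPM in DOX and at 2531, 2740, 2661, 2729 and 2779 CPM in MYO. The lowest Hyper library (2211 CPM) overlapped DOX, and the log2 fold change was -0.43 ± 0.14 (edgeR, adjusted p = 0.0234, and 0.0272 with table names). TCAP was lost without Hyper replicate 2 (adjusted p = 0.138) or Hyper replicate 3 (adjusted p = 0.19). MYOZ2 (-0.26, edgeR adjusted p = 0.0577) passed without DOX replicate 5, without Hyper replicate 3 or when only these groups were fitted (adjusted p = 0.0285 to 0.0415). It also passed with DESeq2 (-0.27, adjusted p = 0.0307). MYOM1 (-0.31, edgeR adjusted p = 0.0692) passed without MYO replicate 2 (adjusted p = 0.0396).

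Neither of the 2 edgeR calls, MYOM2 and TCAP, held when libraries were scaled to their totals or to cardiomyocyte genes. MYOM2 was at -0.25 with library totals and -0.20 with cardiomyocyte genes, and the median of all genes moved from 0.03 to 0.29 and 0.34. Distances from that median are nearly fixed whatever the scaling. They were -0.54 for MYOM2 under each of the 3 scalings, -0.46, -0.46 and -0.44 for TCAP, and 0.19 for MYBPC3. Under both other scalings, MYBPC3 passed as higher in the drug groups (0.48 and 0.53, edgeR adjusted p = 0.0017 and 0.000929), as did 28.7% and 31.8% of all genes. With TMM it was at 0.21 ± 0.09 (edgeR, adjusted p = 0.0701), although each of the 10 drug libraries (5928 to 7517 CPM) was above each Hyper library (5555 to 5915 CPM), a position that 9.98% of all genes shared. MYBPC3 passed as higher with DESeq2 (0.20, adjusted p = 0.0219).

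DOX and MYO were compared with each other to ask whether the liposomal form differs. No member passed the test and no gene did (0.0%) by edgeR, no member had an unadjusted p under 0.05 (7.08% of all genes did), and DESeq2 called no member. The widest difference among the members was that of TCAP, with a log2 fold change of -0.27 and a 95% confidence interval of -0.56 to 0.01. The intervals of MYBPC3 (-0.26 to 0.09), LDB3 (-0.19 to 0.23), MYOZ2 (-0.20 to 0.22) and MYOM2 (-0.13 to 0.34) were narrow, and that of MYPN was the widest (-0.50 to 0.36). Differences of any size within these intervals are compatible with these data. The libraries of DOX and MYO overlapped for every member, and the same held for the calls with table names (0 members, 0.0% of genes).

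The ratio of MYOM2 to MYOM1 does not depend on how libraries are scaled, and it was compared over 6 pairs of groups. It was 1.57, 1.71 and 1.95 in RemoLV, 2.58, 2.97 and 2.80 in Hyper and 1.74, 2.72 and 1.91 in Control, and it ran from 1.92 to 3.00 in DOX and from 1.87 to 2.96 in MYO. All 3 RemoLV libraries were below all 3 Hyper libraries. The mean log2 ratio was 0.80 ± 0.16 (SD, n = 3) in RemoLV and 1.47 ± 0.10 (n = 3) in Hyper, a difference of -0.68 with p = 0.1 in a two-sided exact permutation test, the smallest p that 3 against 3 libraries can give, and an adjusted p of 0.48. The other 5 comparisons had exact p values from 0.2 to 0.889 and did not pass either. With table names the ratio was higher by 0.26 in RemoLV than in Control instead of lower by the same amount (exact permutation test, adjusted p = 0.4). The other differences with table names were 0.35 in DOX, 0.58 in MYO and 0.68 in Hyper vs. Control, -0.24 in DOX vs. MYO and -0.42 in RemoLV vs. Hyper, and none passed (exact permutation tests, adjusted p from 0.161 to 0.24).

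Other genes of the Z-disc, M-band and thick filament were described from a list of 55, of which 47 were found by symbol and 45 were tested. In RemoLV vs. Control, 4 of the 45 were higher (8.89%, against 23.1% of all genes) and 23 lower (51.1%, against 24.0%) with file labels. With table names 23 were higher and 4 lower, against 24.0% and 23.2% of all genes. Their median log2 fold change was -0.65 with file labels, close to the -0.67 of the members. In DOX, 4 were higher (8.89%, against 21.0% of all genes) and 15 lower (33.3%, against 21.1%), and in MYO 5 were higher (against 20.7%) and 12 lower (26.7%, against 21.7%). Under the table's naming, 20 were higher in DOX and 19 in MYO (44.4% and 42.2%, against 15.0% and 14.8% of all genes), and 4 and 2 were lower (8.89% and 4.44%, against 14.6% and 14.4%). None passed in Hyper vs. Control with file labels, as was so of all genes, and with table names 20 were higher (44.4%, against 18.7%) and 3 lower (6.67%, against 17.2%). In RemoLV vs. Hyper, 3 were higher (6.67%, against 17.0%) and 20 lower (44.4%, against 18.6%), and none passed with table names. In DOX and MYO vs. Hyper, 4 were higher (8.89%, against 15.8%) and 8 lower under both namings, and the share of lower genes (17.8%) was near the 16.9% of all genes.

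Among the named genes of that list, nexilin (NEXN), an actin-binding protein of the Z-disc, was at 611.9 ± 123 CPM (SD, n = 5) in DOX and 721.3 ± 158 CPM (n = 5) in MYO, against 1770 ± 353 CPM (n = 3) in Control. Its log2 fold changes were -1.53 and -1.30 (edgeR, adjusted p = 7.75e-06 and 4.01e-05), and they became 0.68 and 0.97 with table names. SYNPO2 (myopodin), which binds actin and filamin, was lower in DOX (-1.47) and MYO (-1.19) and, unlike NEXN, stayed lower in DOX with table names (-0.60, edgeR adjusted p = 0.00585), while in MYO it did not pass with them (-0.29, adjusted p = 0.165). MYOT (myotilin) was lower in DOX (-1.16) and FHL2 in MYO (-0.95), and both were of the other sign with table names (1.05 and 0.69). SYNPO2L, a partner of alpha-actinin, was higher in MYO under both namings (0.96 and 1.02, edgeR adjusted p = 0.000633 and 0.000868). OBSL1, a relative of obscurin that can bind titin and myomesin at the M-band, was higher in DOX (1.06), MYO (0.87) and RemoLV (1.05) with file labels. PDLIM7 in DOX (0.81) and CAPN3, a protease that binds titin, in DOX (0.97), MYO (0.90) and RemoLV (1.16) were also higher, CAPN3 at a level of 3.02 ± 0.273 CPM or less. With table names, neither OBSL1, PDLIM7 nor CAPN3 passed in DOX or MYO, and OBSL1 (-1.05) and CAPN3 (-1.16) were lower in RemoLV.

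In RemoLV, PALLD, a relative of myopalladin that is also made outside of muscle, was higher at 385.5 ± 57.1 CPM (SD, n = 3) against 112.3 ± 21.5 CPM (n = 3) in Control (log2 fold change 1.78, edgeR adjusted p = 2.37e-07), in the libraries in which MYPN was lowest. NEB (nebulin), the large relative of nebulette, was lower at 20.96 ± 5.10 CPM against 195.7 ± 169 CPM (-3.22, edgeR adjusted p = 0.0135), with a wide spread in Control. ANKRD2 and MYOZ3 had no more than 2 and 1 counts in any RemoLV library, and against a floor of 3 counts per library they were at least 18.3-fold and at least 6.58-fold lower than in Control. Both bounds fell without the Control library of the highest count, that of MYOZ3 the more. ANKRD2 had 44, 21 and 104 counts in Control, and its bound was 10.5-fold without Control replicate 3, while MYOZ3 had 8, 57 and 4 counts, and its bound was 2.04-fold without Control replicate 2. MYOZ3 is the paralogue of MYOZ2. With table names, each of these differences of RemoLV has the other sign.

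Over the 19 libraries, Pearson correlations of log2 CPM between the 28 pairs of members ran from -0.478 to 0.937, with a median of 0.442. These points share groups and scaling, and the values are a description without a test. The closest pair was MYOM1 and MYPN (0.937). The genes most like each member in their pattern (3 for each, 2 of them given for MYOZ2) were EIF3A, USO1 and STX12 for MYOM1 (0.968, 0.956 and 0.954), RSL1D1, GK and MEIS2 for MYOM2 (0.933, 0.929 and 0.921), and MRPL38, TWF2 and GPR157 for MYBPC3 (0.94, 0.927 and 0.911). At the Z-disc they were ACTA1, PDLIM1 and CKMT2 for LDB3 (0.965, 0.964 and 0.955), INSR, RAB1A and MYOM1 for MYPN (0.939, 0.937 and 0.937), C19orf53, PSMG4 and RNH1 for TCAP (0.896, 0.892 and 0.892), MRPL50 and FOXO3 for MYOZ2 (0.915 and 0.913), and TBC1D23, FAM126B and RNF11 for NEBL (0.868, 0.848 and 0.846). ACTA1 encodes skeletal alpha-actin and CKMT2 the mitochondrial creatine kinase of sarcomeres. CKMT2 was itself at 229 to 362 CPM in RemoLV and at 895 to 1685 CPM in the other groups.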

How the data were processed

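The authors aligned paired reads of directional poly(A) libraries to Sscrofa11.1 with STAR, counted them per Ensembl gene with HTSeq 0.11.1 and deposited raw counts without normalization. Their table also holds, as deposited by the authors, log2-like expression per sample, used here for sample names only, and the authors' own log2 fold changes and adjusted p-values of each group vs. Control (not used).

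In R 4.3.3, counts were scaled by TMM in edgeR 4.0.16, filtered by filterByExpr (13552 genes), and tested with edgeR's quasi-likelihood test over all 19 libraries (5 group means, no block), with p-values adjusted by Benjamini and Hochberg. A member passed at an adjusted p of at most 0.05, and the DEG rule of the study adds a log2 fold change of 2 or more in size. Genes of the other list were named by rule (per group vs. Control, of those that passed, the 3 that rose most and the 3 that fell most). The most alike genes were the 3 with the highest Pearson correlation of log2 CPM (prior count 2). The ratio was tested by exact permutation. Library totals were between 9527710 and 20370209 counts, with 3 to 5 pigs a group. Alternatives were table names, DESeq2 1.42.0, DESeq2 size factors, scaling to cardiomyocyte genes or library totals, 2 filters, a replicate block, fits of only the groups compared, and leaving out each library. The code was tested on simulated data. The members and lists were chosen with earlier results of these data known. Positions, exon lengths and promoters came from RefSeq on Sscrofa11.1, in which all 8 symbols were found. The promoter of 1 member and 1 of the most alike genes are not reported here. The MYH7 row of the authors' table carries the name MYH6 in the gene name table used here, and the MYOZ2 identifier of the authors' table differs from the one there. Tables used Python 3.11.15, pandas 2.3.3 and matplotlib 3.10.9.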

Additional observations from a re-analysis of the deposited data

Results flagged for a closer look

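Differences between disease groups passed the edgeR quasi-likelihood test directly. In RemoLV vs. Hyper with file labels, the log2 fold changes that passed were -1.25 for MYOM2, -0.97 for MYPN, -0.91 for LDB3, -0.76 for TCAP, -0.59 for MYOM1 and -0.45 for MYBPC3, and none passed with table names. In DOX and MYO vs. Hyper they were -0.51 for MYOM2 and -0.43 for TCAP under both namings. These comparisons share the Hyper libraries.

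MYOZ2 in DOX replicate 5, at 2127 CPM, stood apart from the other 4 DOX libraries (1797 to 1874 CPM), with a gap of 0.767 of the range of the group against a critical value of 0.71. This library is 1 of those in dispute, and the authors' table names it MYO replicate 1. With 18 sets of values checked, chance gives such a gap in about 1 in 20.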

How the results depend on the processing

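With table names, 33 of the 56 log2 fold changes of members changed sign, in DOX vs. Control MYOM1 (0.35), MYOM2 (0.68), TCAP (0.21), LDB3 (0.87), MYPN (0.74), in MYO vs. Control MYOM1 (0.21), MYOM2 (0.78), LDB3 (0.78), MYPN (0.67), in RemoLV vs. Control MYOM1 (1.02), MYOM2 (1.26), MYBPC3 (0.33), TCAP (0.34), LDB3 (1.00), MYPN (1.69), MYOZ2 (0.24), NEBL (0.24), in Hyper vs. Control MYOM1 (0.59), MYOM2 (1.25), LDB3 (0.91), MYPN (0.97), MYOZ2 (0.07), NEBL (0.06), in DOX vs. MYO MYOM2 (-0.10), MYBPC3 (0.05), MYPN (0.06), MYOZ2 (-0.05) and in RemoLV vs. Hyper MYOM1 (0.43), MYOM2 (0.01), LDB3 (0.09), MYPN (0.72), MYOZ2 (0.17), NEBL (0.18), and the MYOM2 to MYOM1 ratio in RemoLV vs. Control became 0.26. The count of members that passed became 6 in Hyper vs. Control and 0 in RemoLV vs. Hyper.

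With library totals, 19 changed sign, in DOX vs. Control TCAP (0.30), LDB3 (0.27), MYOZ2 (0.02), NEBL (0.11), in MYO vs. Control LDB3 (0.25), MYOZ2 (0.01), NEBL (0.01), in RemoLV vs. Control MYBPC3 (0.19), TCAP (0.19), MYOZ2 (0.30), NEBL (0.28), in Hyper vs. Control MYOM2 (0.14), LDB3 (0.10), MYOZ2 (0.02), in RemoLV vs. Hyper MYOZ2 (0.28), NEBL (0.29) and in DOX and MYO vs. Hyper LDB3 (0.16), MYOZ2 (0.00), NEBL (0.07). With scaling to cardiomyocyte genes, 16 did, in DOX vs. Control TCAP (0.25), LDB3 (0.21), NEBL (0.04), in MYO vs. Control LDB3 (0.19), in RemoLV vs. Control MYBPC3 (0.18), TCAP (0.18), MYOZ2 (0.28), NEBL (0.26), in Hyper vs. Control MYOM2 (0.03), in RemoLV vs. Hyper MYOZ2 (0.38), NEBL (0.38) and in DOX and MYO vs. Hyper MYOM1 (0.00), LDB3 (0.22), MYPN (0.03), MYOZ2 (0.05), NEBL (0.11). Under these 2 scalings, 3 and 2 members passed in DOX vs. Control, 3 and 2 in RemoLV vs. Hyper, and 1 and 1 in DOX and MYO vs. Hyper. The median of all genes moved with the scaling, which is part of its construction, and what sets it was not tested. DESeq2 called 4 members in DOX and MYO vs. Hyper, with MYOM2, TCAP and MYOZ2 lower and MYBPC3 higher, and the cause was not tested.

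Leaving out 1 library gave 2 to 5 members in DOX vs. Control, 0 to 2 in Hyper vs. Control and 1 to 3 in DOX and MYO vs. Hyper. It changed the sign of values near 0: MYOM2 in Hyper vs. Control (-0.12 to 0.07), LDB3 (-0.03 to 0.07), MYPN (-0.19 to 0.13) and MYOZ2 (-0.04 to 0.03) in DOX vs. MYO, MYOZ2 (-0.15 to 0.01) and NEBL (-0.22 to 0.10) in RemoLV vs. Hyper, and the ratio in DOX vs. MYO (-0.11 to 0.06). DESeq2 size factors and no filter changed no call of a member. A filter of at least 10 counts in every library changed 1 (MYBPC3 in RemoLV vs. Control, adjusted p = 0.0511), fits of only the groups compared 3 and DESeq2 2.

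Whether the replicate numbers pair the pigs is not given. Over 32 pairs of same-numbered libraries the correlation of deviations from the group mean ran from -0.246 to 0.242, with 4 above 0.1. Among these 4 were DOX and Control replicates 1, 2 and 3 (0.242, 0.158 and 0.117), while DOX replicate 3 and MYO replicate 2 reached 0.278. Such deviations cancel out within each group, so the check cannot exclude pairing. With the replicate number as a block, NEBL in MYO vs. Control (-0.38, adjusted p = 0.114) was the one call lost, so that 5 members passed there in place of 6, and the counts of the other 6 comparisons were the same as without it. No ratio of 3 against 3 libraries can reach an exact p below 0.1.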
